A study of Mus musculus with 6 samples.

Results

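The D-type cyclin genes Ccnd1, Ccnd2 and Ccnd3, the E-type cyclin genes Ccne1 and Ccne2, and the genes of their partner kinases Cdk2 and Cdk4 were followed in peak lists of HA-tagged CDK6. These 7 genes were taken from 21992 protein-coding genes for their place in the cell cycle. Peak values were not used to choose them, but earlier results of these data were known when they were chosen. A peak was assigned to a gene where it overlapped the gene body or 20000 bp to either side, and to its promoter where it overlapped the window from 2000 bp before to 200 bp past any annotated transcript start. Overlapping peaks of the lists were joined, which gave 67 merged regions around the 7 genes out of 56748 in all.

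The study asked whether the kinase activity of CDK6 alters its binding to chromatin. Chromatin was taken from lines of murine pre/pro-B-cells that carry the BCR-ABL(p185) oncogene and lack their own Cdk6, in which HA-tagged CDK6-WT or the kinase-inactive CDK6-K43M was expressed again from a retroviral vector and above the natural level. The parental cells came from bone marrow of C57BL/6 Cdk6-/- mice, and all libraries share that deletion and the oncogene. CDK6-WT and CDK6-K43M each had 2 anti-HA libraries with a peak list, and the 2 input libraries were not analysed here. The labels do not say whether replicates were separate cultures, so p-values measure the spread between these libraries alone.

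D-type cyclins are made in response to mitogens and bind CDK4 or CDK6, and the resulting kinases phosphorylate the retinoblastoma protein. Release of E2F factors then raises the E-type cyclins, which bind CDK2 and carry the cell into S phase. CDK6 has no DNA-binding domain of its own and reaches chromatin through other proteins, so a peak marks DNA crosslinked to a complex that holds it.

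The CDK6-WT lists held 35189 and 34729 peaks, and the CDK6-K43M lists 39797 and 37304. Their median −log10 q was 9.76 and 9.02 in the replicate 1 lists and 6.82 and 6.68 in the replicate 2 lists, so replicate number separated the lists more than the variant did. Strength is therefore given as the percentile of a peak's −log10 q within its own list, and values are listed in the order CDK6-WT 1, CDK6-WT 2, CDK6-K43M 1, CDK6-K43M 2. The promoters of 9 of 10 B-lineage marker genes were bound by both variants, the exception being Rag1, which had a promoter peak in the replicate 2 lists alone, whereas none of 4 T-lineage, 4 myeloid and 3 erythroid markers had a promoter peak in any list. Among all protein-coding genes 41.3% had a promoter region bound by both. A promoter peak in a given list was found for 39.4% to 48.5% of genes, so most genes lack one. Promoter peaks do not measure expression. A peak list cannot show the deletion of Cdk6 or the level of the HA-tagged protein, and neither was checked.

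CDK6 peaks were found at the promoters of all 7 genes. Promoter peaks were present for 7 of 7 genes in CDK6-WT 1, 6 in CDK6-WT 2, 7 in CDK6-K43M 1 and 7 in CDK6-K43M 2, and the missing one was Ccne2 in CDK6-WT 2. Among all protein-coding genes the shares with a promoter peak were 47.0%, 40.1%, 48.5% and 39.4%. Following the study's definition, a region was called bound by both where at least 3 of the 4 lists had a peak in it, and unique to a variant where both lists of that variant and neither of the other did. All 7 genes had a promoter region bound by both, against 41.3% of protein-coding genes, and 6 of 7 had a promoter peak in all 4 lists, against 33.2%. Ccnd2 is among the 6 only through starts of transcripts not annotated as protein-coding. Its promoter peaks in CDK6-WT 2 had summits at 1600, 2096 and 4305 bp. With protein-coding transcripts alone 5 of 7 remained, and no share of all genes is given for that setting. No member had a promoter region unique to CDK6-WT or to CDK6-K43M.

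**Figure D1:**
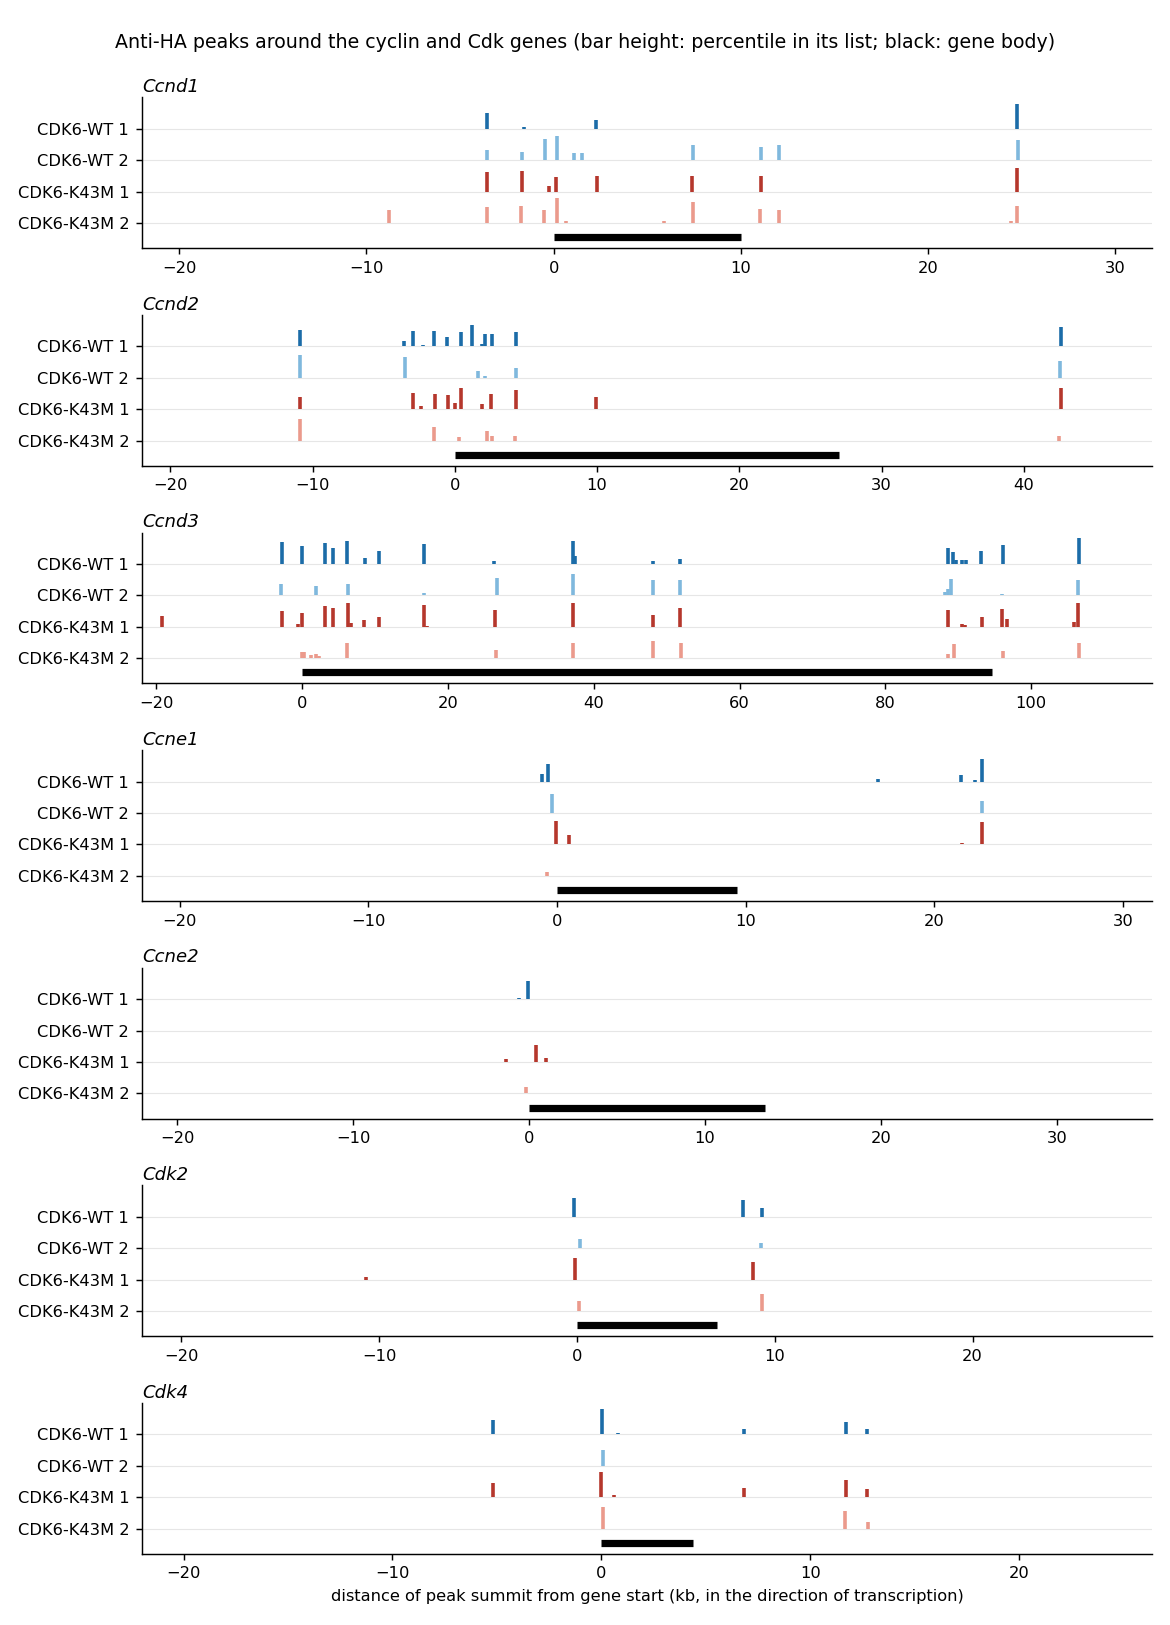
Peak summits of each list around the 7 genes, by distance in kb from the most upstream annotated start (horizontal axis) with 1 row per list. Bar height is the percentile of the peak in its list and the black bar is the gene body. Ccnd3 carries peaks along much of its body, with a stretch free of peaks before the start of its shorter transcripts, whereas Ccne2 has peaks near its start only and none in CDK6-WT 2.

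The summits were supported by few reads. Read counts were recovered from the deposited fold enrichment and p-value of each peak, and each of 2000 sampled peaks per list gave a whole number of reads within 0.002. The strongest promoter peaks of the 7 genes had 10 to 49 reads at the summit, with medians of 23, 18, 33 and 14 reads in the 4 lists, over a lowest background of 1.54 to 1.90 reads. At such depths a single read moves a percentile by several points. In CDK6-K43M 2, 10 reads at Ccne1 gave percentile 16.2, 12 reads at Cdk2 gave 36.2 and 14 reads at Ccnd2 gave 52.0. Each percentile was therefore set beside those that the 95% exact Poisson limits of its reads would have in the same list, which cover counting error only.

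Sequences from within the merged promoter regions are shown because they carry the letters to which the described motif matches refer. Each line is the exon-free stretch, of 100 to 201 bases, nearest to the summit of the gene's strongest promoter region, on the strand of the gene in GRCm38.p6, and capitals mark matches on either strand to SP1 (GGGGCGG), NFY (CCAATC or CCAATG), E2F (TTGGCGC or TTCCCGC), RUNX (TGTGGT) and the E-box (CACGTG). For Ccnd1 the strongest region lay over the first exon, and the region next in strength is shown, which had a peak in all 4 lists.
Ccnd1 (chr7:144941525-144941725): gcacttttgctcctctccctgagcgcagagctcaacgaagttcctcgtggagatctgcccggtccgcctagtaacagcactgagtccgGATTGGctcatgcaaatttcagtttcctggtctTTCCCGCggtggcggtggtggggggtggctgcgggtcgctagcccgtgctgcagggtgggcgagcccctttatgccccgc
Ccnd2 (chr6:127151061-127151261): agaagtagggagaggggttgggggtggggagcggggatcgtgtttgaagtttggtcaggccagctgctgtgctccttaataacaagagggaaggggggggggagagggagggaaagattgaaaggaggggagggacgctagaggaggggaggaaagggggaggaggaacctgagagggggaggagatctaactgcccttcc
Ccnd3 (chr17:47593235-47593435): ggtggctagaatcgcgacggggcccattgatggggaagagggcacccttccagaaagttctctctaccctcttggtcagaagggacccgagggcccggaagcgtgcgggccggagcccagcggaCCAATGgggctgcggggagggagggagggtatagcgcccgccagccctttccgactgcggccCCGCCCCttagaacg
Ccne1 (chr7:38107535-38107735): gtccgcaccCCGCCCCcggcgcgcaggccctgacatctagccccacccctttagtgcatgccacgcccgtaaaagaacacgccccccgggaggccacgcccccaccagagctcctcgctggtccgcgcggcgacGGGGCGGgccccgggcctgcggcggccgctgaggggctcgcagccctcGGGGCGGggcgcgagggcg
Ccne2 (chr4:11191150-11191350): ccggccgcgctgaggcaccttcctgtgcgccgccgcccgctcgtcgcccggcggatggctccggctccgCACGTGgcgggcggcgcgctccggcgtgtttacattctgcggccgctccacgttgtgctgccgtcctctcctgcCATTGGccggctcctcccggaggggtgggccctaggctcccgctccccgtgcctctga
Cdk2 (chr10:128705032-128705179): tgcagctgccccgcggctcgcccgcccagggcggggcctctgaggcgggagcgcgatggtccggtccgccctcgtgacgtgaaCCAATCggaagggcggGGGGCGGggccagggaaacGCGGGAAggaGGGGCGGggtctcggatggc
Cdk4 (chr10:127063333-127063533): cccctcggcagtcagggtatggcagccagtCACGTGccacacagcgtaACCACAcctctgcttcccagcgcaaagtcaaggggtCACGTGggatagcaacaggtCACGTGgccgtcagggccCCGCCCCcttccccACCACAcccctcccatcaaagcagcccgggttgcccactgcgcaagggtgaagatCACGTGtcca

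The Cdk4 stretch, which ends at the base before the gene start, held 4 E-boxes, the site of MYC and related factors. Among the 201 bases upstream of 21938 protein-coding genes, 5.67% held at least 1 E-box and 0.0137%, or 3 genes, at least 4. The centre of the Cdk4 stretch lies 129 bp from the summit, and the 201 bases centred on the summit itself held 1 E-box. The Cdk4 stretch also held 1 SP1 match and 2 RUNX matches. At least 1 SP1 match was present in 24.2% of genes and at least 2 RUNX matches in 0.784%. Ccne1 held 3 SP1 matches over the same span, as did 3.12% of genes. The Cdk2 stretch of 148 bases, which lies between the divergent starts of Cdk2 and of a transcript of its neighbour Pmel, held 2 SP1 matches, 1 NFY match and 1 E2F match. The Ccne2 stretch, which ends before the gene start, held 1 NFY match and 1 E-box, against 23.4% and 5.67% of genes upstream of their start. The Ccnd1 stretch, centred on its summit far from the start, held 1 NFY and 1 E2F match, against 17.9% and 8.92% of 201-base windows centred on the summits of promoter regions bound by both. The Ccnd3 stretch, which lies inside the gene, held 1 NFY and 1 SP1 match and has no like set to compare with. The Ccnd2 stretch had no match to these motifs. Matches to ETS (CCGGAAGT), NRF-1 (GCGCATGCG), the CRE (TGACGTCA) or STAT (TTCNNNGAA) were in none of the 7 stretches, compared with 3.04%, 1.98%, 1.87% and 5.82% of genes upstream of their start, where only the Ccne1, Ccne2, Cdk2 and Cdk4 stretches lie. A match describes letters and not occupancy by the factor.

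Ccnd1, the cyclin that is often overexpressed in tumours, had the most regions per length of the 7 genes, with 14 regions or 2.8 per 10 kb, a density at or above that of 99.3% of protein-coding genes. The number of peaks varied between libraries. CDK6-WT 1 had 4 peaks around the gene, whereas CDK6-WT 2 had 10, CDK6-K43M 1 had 8 and CDK6-K43M 2 had 12. The region over the start site (chr7:144939417-144939937) covers the first exon, with its summit at 162 bp. It had no peak in CDK6-WT 1, and percentiles of 91.8, 55.2 and 94.1 in CDK6-WT 2, CDK6-K43M 1 and CDK6-K43M 2. These rested on 31, 21 and 31 reads, and the fold enrichment was 11.38, 7.09 and 12.46. The start site of Ccnd1 was thus high in both replicate 2 lists, of either variant, and lower or absent in the replicate 1 lists.

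A further Ccnd1 promoter region, centred at -1700 bp (chr7:144941040-144941935), had a peak in all 4 lists. Its percentiles were 6.3, 30.8, 79.1 and 65.2, on 12, 20, 33 and 24 reads. Both CDK6-K43M libraries were above both CDK6-WT libraries, with a difference of 53.6 percentile points between means of 72.2 ± 9.8 and 18.6 ± 17.3 (SD, n = 2; two-sided exact permutation test, p = 0.33). With 2 libraries against 2 no smaller p than 0.33 can be reached, and the region was picked out after its values were seen. The local background there was 2.06, 4.35, 1.95 and 3.96 reads, which was higher in the replicate 2 lists. An upstream region at -3547 bp showed the same order, at 60.6, 39.8, 73.3 and 61.2 (difference 17.0, exact permutation p = 0.33). The lowest CDK6-K43M value exceeded the highest CDK6-WT value there by less than 1 percentile point.

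Further Ccnd1 regions lacked a peak in CDK6-WT 1. A region at -461 bp stood at 77.8, 20.8 and 50 in CDK6-WT 2, CDK6-K43M 1 and CDK6-K43M 2. A region over the last exon, at 7460 bp, stood at 58.7, 59.3 and 79.7, and a region past the gene end, at 11064 bp, at 50.1, 58.7 and 52.0. In these last regions CDK6-WT 2 was below both CDK6-K43M lists. The most distant one, at 24774 bp and in the promoter of the neighbouring gene LTO1, was the only region around Ccnd1 in which CDK6-WT 1 was the highest list, with 94.6, 76.7, 87.1 and 64.0. The lack of peaks in CDK6-WT 1 did not extend to this end of the stretch. The plot of Ccnd1 regions by list shows the gap in CDK6-WT 1 between the region at -1700 bp and the LTO1 promoter, broken by 1 peak.

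**Figure D2:**
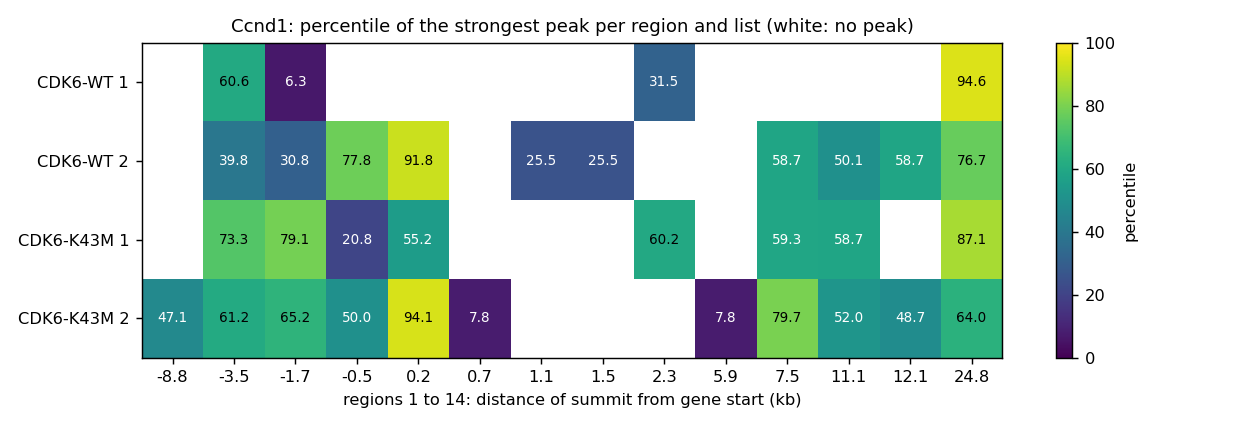
Percentile of the strongest peak in each of the 14 regions around Ccnd1 (columns, labelled by the distance of the summit from the gene start in kb) in each list (rows), white where the list has no peak. CDK6-WT 1 holds 4 of the 14 regions, and at -1700 bp both CDK6-K43M lists (79.1 and 65.2) exceed both CDK6-WT lists (6.3 and 30.8).

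Ccnd2, a D-type cyclin used by B-lineage cells, was covered around its start by a region of 2880 bp (chr6:127149415-127152294) in all 4 lists. It joins the start of the longest transcript with the starts of several shorter ones and overlaps the promoter of the antisense RNA 9330179D12Rik. Its strongest summit lay at 1178 bp, and its percentiles were 78.3, 25.5, 78.5 and 36.2. These came from different peaks of the merged region, with summits at 1178, 1600, 443 and 2240 bp. Both replicate 1 lists were above both replicate 2 lists. Within a replicate number the variants were 0.2 and 10.7 points apart, each time between peaks at different summits. The next promoter region, at 4276 bp, had the same order at 53.4, 36.3, 71.5 and 16.2. A promoter region at -1486 bp was in 3 lists at 59.0, 55.2 and 52.0, without CDK6-WT 2.

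Upstream of Ccnd2 the order of the replicates differed between regions. The strongest region outside its promoter, at -10898 bp, stood at 62.3, 87.1, 47.7 and 81.3, and both replicate 2 lists were above both replicate 1 lists. The 1 region around the 7 genes that was unique to a variant lay at -3530 bp (chr6:127155592-127155866), with CDK6-WT percentiles of 19.5 and 76.7 and no peak in either CDK6-K43M list. These peaks had 14 reads (95% Poisson limits 7.7 to 23.5) and 22 reads (13.8 to 33.3). The next region towards the gene, at -2917 bp, had peaks in the replicate 1 lists alone, at 59.0 and 62.2, as did a weaker region at -2367 bp. The downstream region at 42596 bp, in the promoter of Tigar, a regulator of glycolysis, stood at 74.4, 63.4, 81.3 and 16.2.

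Ccnd3, the D-type cyclin required for expansion of pre-B cells, had 26 regions, 11 of them bound by both, over 134.6 kb, or 1.93 per 10 kb. Its main start (chr17:47504911-47505235) had a peak in all 4 lists, at 66.6, 1.0, 50.8 and 21.7, which is low in both replicate 2 lists. The promoter of the shorter transcripts, 88596 bp into the gene (chr17:47593124-47594562), was stronger in 3 of the 4 lists, with 59.0, 61.0, 64.8 and 52.0. It had the narrowest range of the 8 promoter regions with a peak in all 4 lists, and the means of the variants were 60 ± 1.4 for CDK6-WT and 58.4 ± 9.1 for CDK6-K43M (SD, n = 2; exact permutation p = 1). These values came from different peaks of the merged region, with summits spread over 783 bp. At the summits between 88596 and 88657 bp, which all lists shared, the percentiles were 59.0, 25.5, 64.8 and 16.2.

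Ccnd3 also had 5 intronic regions with a peak in all 4 lists, more than any other member. The highest lay 37148 bp into the gene (chr17:47541968-47542918), with percentiles of 85.6, 79.6, 90.6 and 56.7, on 35, 24, 46 and 15 reads. All 4 lists were higher there than at the main start. A region at 6276 bp stood at 84.3, 43.9, 90.3 and 58.4. Further in, the regions at 48123 bp and 51823 bp were low in CDK6-WT 1, with 12.2, 56.1, 45.4 and 64.0 in the former and 19.5, 58.7, 71.5 and 56.7 in the latter. Between 3143 and 10601 bp, 4 intronic regions had peaks in the replicate 1 lists alone. Past the gene end, the promoters of Med20 and Bysl, at 106504 bp, held a region at 95.8, 56.1, 88.6 and 58.4.

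Cdk4, the kinase that shares its D-type cyclin partners with CDK6, had the highest promoter peak of the 7 genes in both replicate 1 lists and by the mean over the lists. In CDK6-WT 2 it was below Ccnd1, Ccne1 and Ccnd3, and in CDK6-K43M 2 below Ccnd1. A region of 1312 bp over the start (chr10:127063124-127064435) stood at 97.0, 60.2, 94.2 and 80.9, on 46, 18, 49 and 21 reads, with a fold enrichment of 18.28, 6.75, 16.03 and 8.54. The summits of the 4 lists fell within 88 bp of each other, from -12 to 76 bp, at the end of the stretch with the E-boxes. Both replicate 1 lists were above both replicate 2 lists, and the mean of 87.6 ± 9.4 for CDK6-K43M against 78.6 ± 26.0 for CDK6-WT (SD, n = 2) gave an exact permutation p = 1. The mean over the 4 lists, 83.1, was at or above that of 77.8% of the 7303 genes with a promoter peak in all 4. Around the gene, 2 regions downstream were bound by both, without CDK6-WT 2, and 1 of these lay in the promoter of Agap2 at 46.8, 66.4 and 67.1.

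Ccne1, the first of the E-type cyclins, had a single promoter region bound by both (chr7:38107300-38108475), at 66.6, 70.2, 87.1 and 16.2 on 22, 20, 39 and 10 reads. The CDK6-WT lists lay between the CDK6-K43M lists, so the variants could not be told apart. The 95% Poisson limits of the highest and lowest peak corresponded to percentiles of 71.2 to 96.3 in CDK6-K43M 1 and 0.0 to 72.1 in CDK6-K43M 2. A region downstream of the gene, at 22545 bp, was in 3 lists at 85.9, 43.9 and 85.7, without CDK6-K43M 2.

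Ccne2 was the least covered cyclin, with 3 regions, all at its promoter. The region over its start (chr4:11190543-11191914) stood at 69.2, 64.8 and 23.7 in CDK6-WT 1, CDK6-K43M 1 and CDK6-K43M 2, on 23, 28 and 11 reads. CDK6-WT 2 had no peak in or near the gene, which in that list means a −log10 q below 1.31 and not an absence of reads. The other 2 regions were found in CDK6-K43M 1 alone, at 11.1 and 15.

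Cdk2, the partner of the E-type cyclins, had its promoter region (chr10:128704461-128705681) in all 4 lists, at 70.0, 36.3, 81.1 and 36.2 on 24, 14, 35 and 12 reads. The region is also the promoter of Pmel, a pigment cell gene, and the peaks cannot be assigned to either. The summits spread over 328 bp. The variants were 11.1 points apart within replicate 1 and level within replicate 2, and both replicate 1 lists were above both replicate 2 lists. A region past the gene end, at 8905 bp and in the promoter of Rab5b, stood at 61.4, 19.5, 66.4 and 62.3, with both CDK6-K43M lists above both CDK6-WT lists (difference 23.9, exact permutation p = 0.33). The order rested on 62.3 in CDK6-K43M 2 against 61.4 in CDK6-WT 1. It also compared different peaks, whose summits lay at 8408, 9287, 8905 and 9355 bp.

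To compare the variants gene by gene, the strongest promoter peak of each list was taken, whichever promoter region it fell in. In each of the 6 genes with a peak in all 4 lists the values of the variants overlapped. Both lists of a variant were above both of the other in 0 of 6, against 6.78% of 7303 genes with CDK6-K43M above and 3.61% with CDK6-K43M below. The order by replicate number was common, with both replicate 1 lists above both replicate 2 lists for Ccnd2, Ccnd3, Cdk2 and Cdk4, or 4 of 6, against 69.3% of genes. The opposite order held for Ccnd1, or 1 of 6, against 10.1% of genes.

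The largest difference was that of Ccnd1, whose percentiles were 6.3, 91.8, 79.1 and 94.1. The CDK6-K43M mean of 86.6 ± 10.6 exceeded the CDK6-WT mean of 49.0 ± 60.5 by 37.6 points (SD, n = 2; exact permutation p = 0.67), a difference at or above that of 99.5% of genes. It came from replicate 1, with 72.9 points there and 2.3 in replicate 2, reversed to -5.2 without CDK6-WT 1, and fell to 15.5 with a promoter window of 500 bp to each side of the starts. The lists drew on different regions, at -1559 and -1700 bp in the replicate 1 lists and at the start site in the replicate 2 lists. Ccne1 had a difference of -16.7 (exact permutation p = 1), made of 20.5 within replicate 1 and -54.0 within replicate 2, and it reversed to 18.7 without CDK6-K43M 2. The Ccne1 summits lay at -485, -283, -45 and -531 bp, so the lists drew on different summits of the merged region.

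The other differences were smaller. They were 7.9 for Ccnd2 (exact permutation p = 0.67), -5.4 for Ccnd3 (exact permutation p = 0.67), 5.5 for Cdk2 (exact permutation p = 1) and 9.0 for Cdk4 (exact permutation p = 1). The interval between the 25th and 75th percentile of genes ran from -6.9 to 8.2, with a median of 0.55. For Ccnd2 and Ccnd3, too, the lists drew on different regions. The Ccnd2 summits lay at 1178, 4305, 443 and -1493 bp. For Ccnd3, CDK6-WT 1 drew on the main start, at 33 bp, and the other lists on the promoter of the shorter transcripts. Leaving out CDK6-WT 2 turned the sign to -13.1 for Ccnd2, -11.3 for Cdk2 and -9.4 for Cdk4, leaving out CDK6-K43M 1 turned it to -5.3 for Ccnd2 and -16.9 for Cdk2, and leaving out CDK6-K43M 2 turned it to 1.0 for Ccnd3. For Ccne2 the difference within replicate 1 was -4.5, between summits at -40 bp in CDK6-WT 1 and 383 bp in CDK6-K43M 1. With a percentile of 0 for the missing peak in CDK6-WT 2, the means were 34.6 ± 49.0 for CDK6-WT and 44.2 ± 29.0 for CDK6-K43M (SD, n = 2), a difference of 9.6 (exact permutation p = 1).

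**Figure D3:**
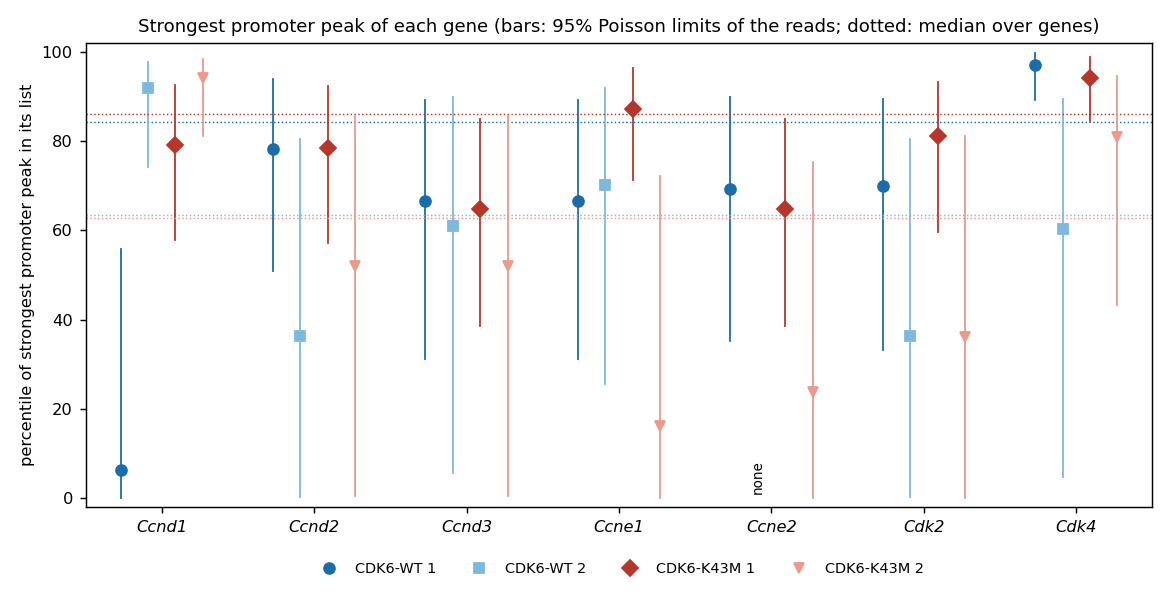
Percentile of the strongest promoter peak of each gene in each list (vertical axis), with bars from the percentile at the lower to that at the upper 95% Poisson limit of its reads; dotted lines are the medians over 7303 genes. Ccnd1 in CDK6-WT 1 (6.3) stands far below the 3 other lists (79.1 to 94.1), while most bars of a gene overlap.

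**Figure D4:**
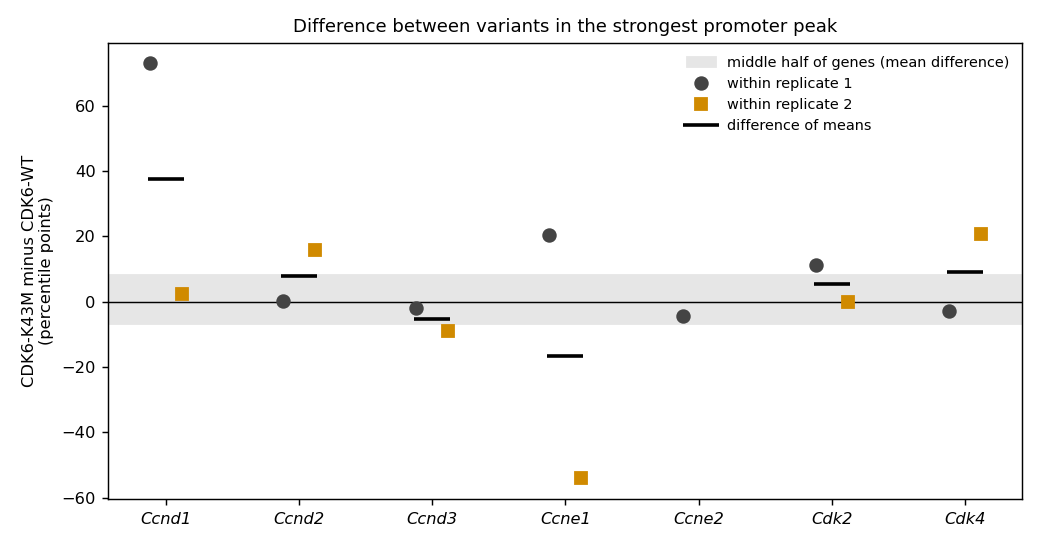
Difference between CDK6-K43M and CDK6-WT in the percentile of the strongest promoter peak, in percentile points, within replicate 1, within replicate 2 and between the means; the grey band spans the 25th to 75th percentile of the difference of means over 7303 genes. Ccnd1 departs in replicate 1 alone (72.9 against 2.3) and Ccne1 has opposite signs in replicate 1 (20.5) and replicate 2 (-54.0).

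Of the 67 regions around the 7 genes, 31 or 46.3% were bound by both, against 40.5% of all merged regions. A peak in all 4 lists was found in 20 of the 67, against 16381 of 56748 merged regions. None was unique to CDK6-K43M (1.26% of all regions) and 1 was unique to CDK6-WT (0.359%). The replicate 1 lists alone held 13 of the 67 regions, against 7357 of 56748 regions in all. The replicate 2 lists alone held 2 of the 67, against 6263 of 56748. A further 20 of the 67 were in 1 list, a count that was not set beside a share of all regions. By position, each region was given a single place, with promoters taken first, so promoter regions that also cover exons count as promoter. On that rule 24 regions overlapped a promoter of the 7 genes, 6 an exon, 12 an intron, 10 lay upstream and 15 downstream. Counted separately, 12 overlapped the promoter of a neighbouring gene. These counts were not set beside shares of all regions. The regions were dense at the D-type cyclins, with 1.49 per 10 kb at Ccnd2, and at Cdk4 with 1.35, compared with 1.01 at Ccne1, 0.64 at Cdk2 and 0.56 at Ccne2. The median protein-coding gene had 0.371 per 10 kb.

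Within the 20 regions that had a peak in all 4 lists, both CDK6-K43M lists were above both CDK6-WT lists in 3, namely the Ccnd1 regions at -1700 and -3547 bp and the Cdk2 region at 8905 bp, against 9.80% of 16381 such regions. The opposite order was found in 0 of 20, against 5.08%. Both replicate 1 lists were above both replicate 2 lists in 11, against 41.1%, and below them in 2, against 29.7%. The test is the exact permutation over 4 lists, in which all 3 regions had an unadjusted p = 0.33 and none could fall below it.

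**Figure D5:**
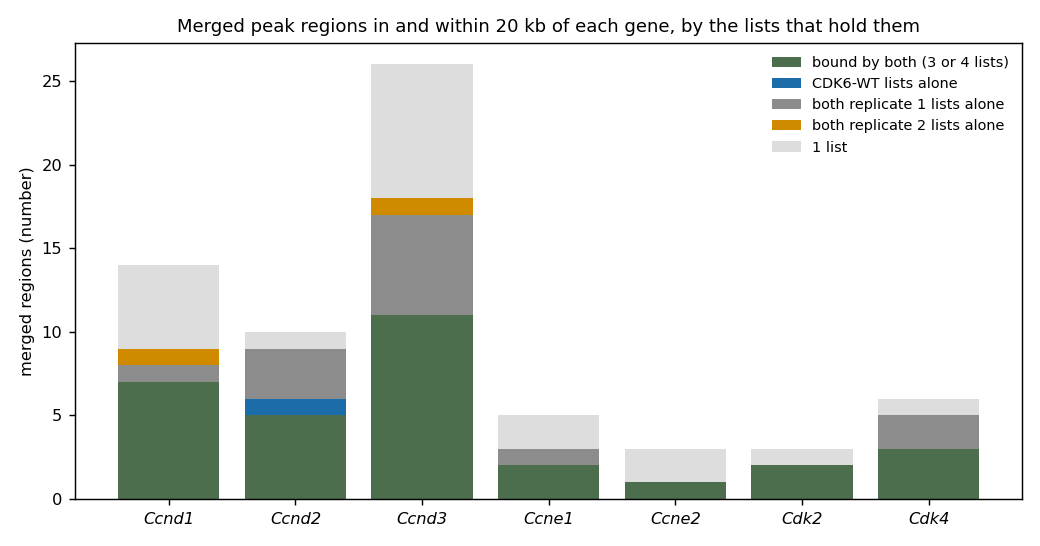
Number of merged regions in and within 20 kb of each gene (vertical axis), split by the lists that hold them. Regions bound by both make up 7 of 14 at Ccnd1, 5 of 10 at Ccnd2 and 11 of 26 at Ccnd3, and the single CDK6-WT region lies at Ccnd2.

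Most other genes of the G1 and S phase machinery had CDK6 peaks at their promoters. Of 31 genes, among them Rb1 and its relatives, the E2f and Tfdp genes, further cyclins and kinases and the CDK inhibitors, 28 or 90.3% had a promoter region bound by both, against 41.3% of protein-coding genes, and 25 or 80.6% a promoter peak in all 4 lists, against 33.2%. The genes without a promoter peak in any list were Ccna1, the cyclin A of germ cells, and Cdkn1c, which encodes the inhibitor p57, and E2f6, singled out after its values were seen, had 1 peak in CDK6-K43M 1 at percentile 7.0. None had a promoter region unique to a variant. E2f2 and Cdkn1a had promoter peaks in the replicate 1 lists alone, at 14.2 and 51.8 for E2f2 and 59.5 and 96.8 for Cdkn1a. They count among the 28 because the merged region, which reaches past the promoter window, had peaks in further lists. The share of all protein-coding genes follows the same rule. Among the 25 genes the median difference between CDK6-K43M and CDK6-WT was 1.6 points, E2f3 alone had both CDK6-K43M lists above both CDK6-WT lists, at 30.0, 43.9, 55.2 and 52.0, against 6.78% of genes, and 19 had both replicate 1 lists above both replicate 2 lists, against 69.3%. Cdk6 itself, deleted in these cells and expressed again from the vector, stood at 46.8, 10.2, 63.2 and 44.9. Its exons were overlapped by 4, 2, 3 and 2 peaks, of which 1, 1, 0 and 1 lay outside its promoters. Reads from the copy in the vector could map to exons, so these values cannot be told apart from vector DNA. Cdk6 is counted among the 28 and the 25 genes.

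For the members with a promoter peak in all 4 lists, the protein-coding gene with the most similar set of 4 percentiles was found by the Euclidean distance, among 7302 others. It was Lrrc71 for Ccnd1 (distance 12.42 points), Ywhab for Ccnd2 (5.23), Slc12a7 for Ccnd3 (4.91), Hdac4 for Ccne1 (7.62) and Ogg1 for Cdk4 (1.52). Ccnd1 had the most distant neighbour of the 6, and Lrrc71 shared its low CDK6-WT 1 value, at 12.2, 94.7, 73.3 and 85.3. For Cdk2 the nearest gene was Pmel, through the region they share.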

How the data were processed

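Per the labels and the study's methods, the authors crosslinked cells with DSG and formaldehyde, precipitated with anti-HA (ab9110), trimmed reads (Trimmomatic 0.36), aligned them to mm10 (BWA 0.7.15) and called peaks per library, without pooling, with MACS2 2.1.0. The deposited lists give each peak's score, fold enrichment (a ratio of reads to local background), −log10 p, −log10 q and summit. The authors' fold enrichment and −log10 p were used to recover reads at the summit. Percentiles are the midpoint between the share of peaks in the list with a lower −log10 q and the share with a lower or equal one. Transcripts are from GENCODE vM21, sequences from GRCm38.p6. Peaks joined by 1 bp of overlap. The strongest promoter region has the highest mean percentile over the 4 lists, counting an absent peak as 0. Variants were compared by a two-sided exact permutation test over 6 assignments. The rule for naming took every promoter region bound by both, the region of highest mean percentile elsewhere where it had peaks in all 4 lists, and regions in a neighbour's promoter. Further regions were named after their values were seen. The members and lists were chosen with earlier results of these data known. Scripts were tested on simulated data (Python 3.11.15, scipy 1.17.1, pysam 0.24.0).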

Additional observations from a re-analysis of the deposited data

How the results depend on the processing

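Of 122 alternative values for 12 results, 90 kept their direction or stayed within 1.5 times the reported count (for differences of medians, within 3.2 points). Stricter peak thresholds thinned the calls. At a minimum −log10 q of 10, 3 members kept a promoter region bound by both, 0 had a promoter peak in all 4 lists, 6 regions were bound by both, 0 were unique to CDK6-WT and 1 to CDK6-K43M. With the 10000 strongest peaks of each list these were 1, 0, 3, 0 and 0. At a minimum of 5, 0 regions were unique to CDK6-WT and 1 to CDK6-K43M. Merging within 500 bp left 0 unique to CDK6-WT.

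Leaving out each library gave 6 to 7 members bound by both, 6 to 7 with a promoter peak in every list, 30 to 44 regions bound by both, 1 to 4 unique to CDK6-WT and 4 to 9 unique to CDK6-K43M, where a variant with 1 list needs that list alone.

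The median difference between variants over the 6 members, 6.7 points, ranged from -11.3 to 20.0 when a library was left out, reversing to -8.6 without CDK6-K43M replicate 1 and to -11.3 without CDK6-WT replicate 2. It moved to 0.0 with a promoter window of 500 bp to each side, where Ccnd2 reversed to -6.0 and Ccnd1 fell from 37.6 to 15.5, and to 7.9 with a percentile of 0 for the missing Ccne2 peak. A minimum −log10 q of 5 left no value for Ccnd1 and Ccne1, and a minimum of 10 or the 10000 strongest peaks left none for any member. By gene the difference ranged from -5.2 to 80.3 (Ccnd1), -13.1 to 29.0 (Ccnd2, -5.3 without CDK6-K43M replicate 1), -11.8 to 1.0 (Ccnd3), -52.1 to 18.7 (Ccne1), -16.9 to 27.9 (Cdk2, -11.3 without CDK6-WT replicate 2) and -9.4 to 27.4 (Cdk4). The cause was not tested. Restricting to protein-coding transcripts, an alternative chosen after seeing the data, left 5 members with a promoter peak in all 4 lists, without Ccnd2.

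With the replicate number as a block the median difference stayed at 6.7, with a smallest possible p of 0.5. Replicate 1 minus replicate 2 correlated between the variants over 7303 genes (Pearson r = 0.57, across genes, which are not independent), but the labels do not say what the number marks. Depth limits the comparison to differences larger than the Poisson limits of 10 to 49 reads.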
